A study of Mus musculus with 60 samples.

Results

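The Dlk1-Meg3 imprinted locus of mouse chromosome 12 was followed through 5 tissues as 6 genes, chosen by their place in the domain: Dlk1, Meg3, Rian, Mirg, Rtl1 and Dio3. All 6 were among the 41079 genes of the count table. The data were 60 RNA libraries from 12 mice, with 1 library per animal from each of 5 tissues: liver, pancreas and the sublingual, submandibular and parotid salivary glands. Outbred CD1 and inbred C57 animals were used, with 3 males and 3 females of each, so every group of tissue, strain and sex held 3 libraries. No treatment or engineered allele is given for any group, and the age of the animals is not given in the sources used here. The domain was taken up because Dlk1 had been seen to differ between the strains in glands, so the strain differences of Dlk1 in the 3 glands are described without a test. The other genes were chosen by position, and their differences were tested.

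In an imprinted domain, a gene is read mainly from the chromosome of 1 parent. Dlk1, Rtl1 and Dio3 are protein-coding genes read from the paternal chromosome. Meg3, Rian and Mirg are long noncoding RNAs read in the same direction from the maternal chromosome, and they host clusters of small nucleolar RNAs and microRNAs. A methylated control region upstream of Meg3 sets which parental copy is active. The counts do not separate the parental copies, so every value here is a sum over both alleles.

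The promoters of Dlk1 and Meg3 are shown because these 2 genes lie side by side and their strain differences had opposite directions in the sublingual gland. The sequences are from RefSeq for the build GRCm38.p6, a C57BL/6J reference, and run from 250 bases before to 50 bases after the annotated start. The CD1 sequence was not analysed here. The Dlk1 promoter lies at chr12:109452573-109452872 on the plus strand, and that of the first Meg3 start site at chr12:109540746-109541045 on the same strand. Capitals in the Meg3 promoter mark matches of CCAAT, of the cyclic AMP response element TGACGTCA and of the TATA box TATAAA.
Dlk1 promoter: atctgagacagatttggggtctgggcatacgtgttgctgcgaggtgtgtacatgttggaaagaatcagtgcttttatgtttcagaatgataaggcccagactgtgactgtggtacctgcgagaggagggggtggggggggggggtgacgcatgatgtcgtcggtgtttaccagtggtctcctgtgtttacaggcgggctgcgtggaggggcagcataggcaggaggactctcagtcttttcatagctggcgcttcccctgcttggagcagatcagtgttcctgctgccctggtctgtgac
Meg3 promoter: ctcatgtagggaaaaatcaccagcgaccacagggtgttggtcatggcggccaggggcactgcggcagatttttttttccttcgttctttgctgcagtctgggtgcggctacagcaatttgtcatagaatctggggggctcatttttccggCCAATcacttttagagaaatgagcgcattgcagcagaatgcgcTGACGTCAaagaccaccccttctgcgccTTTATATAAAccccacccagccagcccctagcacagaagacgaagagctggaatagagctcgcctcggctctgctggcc
Motifs were searched on both strands. In Meg3, CCAAT began 100 bases before the start, TGACGTCA began 57 bases before it, and TATAAA matched on both strands in overlapping stretches that began 29 and 25 bases before it. The Dlk1 window held no match of these motifs or of the GC box GGGCGG. Among 32851 promoters of 300 bases, 13.6% held TATAAA, 1.79% held TGACGTCA, 37.4% held CCAAT and 35.7% held GGGCGG. A match describes the letters and is not evidence of binding. Of the 6 genes, 5 had a promoter entry, and Rtl1 is the one that is named only.

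The domain is also known for its microRNAs, small RNAs that pair with messenger RNAs through a seed at bases 2 to 8. RefSeq places 58 hairpins with 113 mature microRNAs in the domain, and they carry 104 different seeds. Those on the strand opposite Rtl1 are shown because their host RNA overlaps a member of the domain in antisense. There are 6 such hairpins with 11 mature forms, and the seed is in capitals in 1 form of 5 of them.
miR-431-5p: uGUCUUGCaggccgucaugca
miR-433-3p: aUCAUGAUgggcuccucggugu
miR-127-3p: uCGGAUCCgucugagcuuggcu
miR-434-3p: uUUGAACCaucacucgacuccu
miR-136-5p: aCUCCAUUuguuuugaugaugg
These 5 seeds all differ. Only 9 seeds of the domain were shared by more than 1 mature name. One shared seed lies within Mirg, in miR-453 and miR-496a-5p.
miR-453: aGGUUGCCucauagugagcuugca
miR-496a-5p: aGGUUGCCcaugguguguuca
The libraries were made by poly(A) selection, so mature microRNAs were not measured.

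The libraries held between 29.9 M and 66.6 M counts each (M for mega), the median being 40.5 M. Levels are given as CPM, counts per M total counts scaled by the trimmed mean of M-values. Albumin (Alb), Cpa1, Muc19, Bpifa2 and Egf were highest on average in liver, pancreas, sublingual, parotid and submandibular libraries, respectively. Some libraries stood apart: pancreas CD1 female 2 and female 3 had 31.1 and 9779 CPM of the pancreatic enzyme Cpa1 against a pancreas mean of 76040, and sublingual C57 male 2 had 11140 CPM of the submandibular gene Egf. For the members reported in pancreas and sublingual gland, the strain differences are given with and without them. Those of other genes there, markers included, are given with every library kept. The labels do not say how the animals were housed or whether libraries were made together.

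Dlk1 encodes a transmembrane protein of the Delta-like family that acts on Notch signalling and on the growth of precursor cells. In the submandibular gland, the 6 CD1 libraries had a lowest, median and highest level of 4.38, 19.3 and 44.7 CPM, and the 6 C57 libraries had 0.160, 0.766 and 1.77 CPM. The sublingual CD1 values were 5.27, 18.5 and 42.0 CPM, and the C57 values were 0.345, 0.413 and 0.606 CPM. All 6 CD1 libraries lay above all 6 C57 libraries in both glands. How many of all genes lack overlap between groups was not counted, here or below, so a lack of overlap is described only. The ratio of means was 29.9 in the submandibular and 48.9 in the sublingual gland, and the fitted log2 fold changes, CD1 minus C57, were 4.74 ± 0.34 (SE) and 5.19 ± 0.23. These contrasts led to the choice of the domain and are given as a description.

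The parotid gland did not share this pattern. There, CD1 had 1.20 ± 0.609 CPM of Dlk1 (SD, n = 6), against 1.17 ± 0.392 for C57, with a log2 fold change of -0.04 ± 0.34, and the groups overlapped. In pancreas CD1 had 2.54 ± 2.06 CPM, against 3.28 ± 3.08 for C57. Without the CD1 females of low Cpa1, the CD1 mean was 3.43 ± 1.95 CPM (n = 4), above that of C57, and the log2 fold change of Dlk1 turned from -0.29 to 0.36 (adjusted p = 0.725). In liver CD1 had 0.940 ± 0.550 CPM, against 0.636 ± 0.487 for C57. By edgeR's quasi-likelihood test, adjusted over all genes tested (Benjamini-Hochberg), the strain differences in pancreas and liver did not pass with every library kept, with adjusted p = 0.818 in pancreas and 0.667 in liver. Against the sublingual CD1 mean, C57 tissues lay at 2.04% in sublingual gland, 2.92% in liver, 3.55% in submandibular gland, 5.36% in parotid and 15.1% in pancreas. For scale, RNA of genes that mark 1 tissue was found in other tissues at medians of 0.140% to 1.16% of the mean in the tissue they mark. In single libraries it reached 20.5% for the sublingual gene Nkx2-3 and 64.7% for Egf. In bulk samples, fewer cells of a type and less RNA per cell cannot be told apart.

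**Figure D1:**
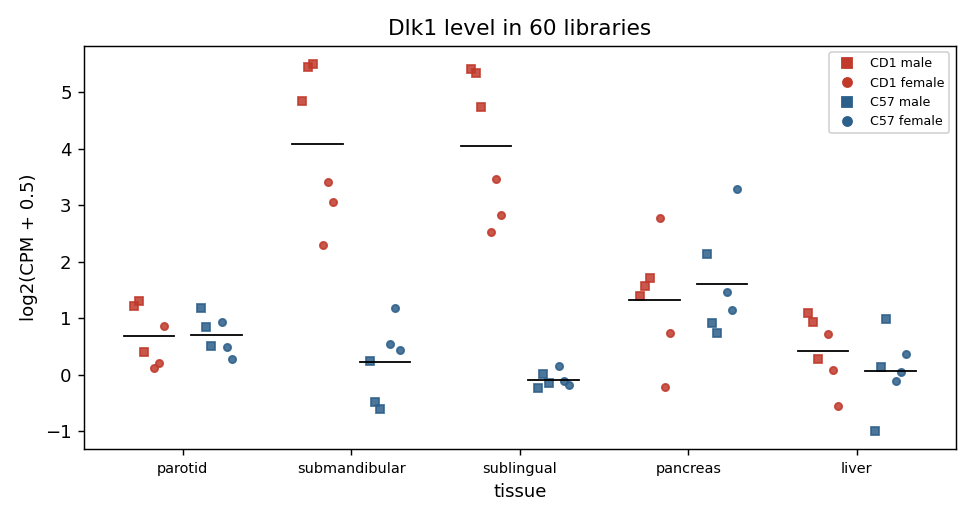
Dlk1 level as log2(CPM + 0.5) on the vertical axis in each of the 60 libraries, by tissue on the horizontal axis; red is CD1, blue is C57, squares are males, circles are females and black lines are means of 6 libraries. All 6 CD1 libraries sit above all 6 C57 libraries in the submandibular and sublingual glands, and the strains overlap in the other tissues.

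Within CD1, the Dlk1 levels of the sexes lay apart in those 2 glands. Of the submandibular libraries, the 3 males had 28.4, 43.3 and 44.7 CPM and the 3 females had 4.38, 10.1 and 7.80 CPM. Sublingual males had 42.0, 39.9 and 26.4 CPM and the females had 5.27, 10.5 and 6.64 CPM. Males lay above females without overlap in both, by a ratio of means of 5.22 and 4.82. C57 males and females had 0.684, 0.211 and 0.160 CPM against 0.959, 1.77 and 0.849 CPM in the submandibular gland, where the females were the higher sex. For C57 sublingual gland, males and females had means of 0.419 and 0.471 CPM.

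The interaction (how much larger the male excess was in CD1 than in C57) was 4.17 ± 0.65 on the log2 scale for Dlk1 in the submandibular gland, with adjusted p = 0.0642 by edgeR. Its sublingual value was 2.44 ± 0.42, with adjusted p = 0.215. Neither passed the threshold of 0.05, and 0.0226% and 0.0106% of all genes tested did. The Dlk1 interactions passed with DESeq2, at adjusted p = 2.14e-07 and 8.71e-05, and with no filter on low counts, at adjusted p = 6.01e-07 and 0.0075. The submandibular one also passed without C57 male 1, at adjusted p = 0.0144. The other alternatives, 14 of 17 in the submandibular and 15 of 17 in the sublingual gland, did not pass. Over all alternatives, adjusted p reached 0.247 and 0.697. The interactions draw on the same gland values of Dlk1 that led to the choice of the domain. The log2 strain difference of Dlk1 was 6.83 in males and 2.66 in females in the submandibular gland, and 6.41 and 3.97 in the sublingual gland.

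Meg3 is the long noncoding RNA next to Dlk1, with a listed exon at chr12:109506879-109506982 in GRCm39. Its strain difference had opposite directions in the 2 glands in which Dlk1 was high in CD1. For submandibular gland, the lowest, median and highest Meg3 levels were 19.9, 26.9 and 64.7 CPM in CD1 and 7.52, 12.8 and 19.2 CPM in C57. All 6 CD1 libraries were above all 6 C57 libraries. In the sublingual gland they were 46.0, 71.6 and 125.6 CPM in CD1 and 88.4, 154.1 and 232.2 CPM in C57, and 5 of 6 CD1 libraries were below every C57 library.

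Meg3 rose in CD1 submandibular gland by a log2 fold change of 1.37 ± 0.27 (SE, edgeR adjusted p = 0.00996) and fell in CD1 sublingual gland by 1.01 ± 0.26 (adjusted p = 0.0245). Among all genes tested, 4.75% were called in the submandibular gland (2.25% higher in CD1) and 14.8% in the sublingual gland (7.36% higher in C57). Submandibular CD1 female 2 had the highest Meg3 of its gland, and without it the difference was 1.01 with adjusted p = 0.00471. The sublingual call is less firm: without C57 female 1, C57 female 3, C57 male 3, CD1 female 1, CD1 female 2 or CD1 male 1, the adjusted p for Meg3 was 0.0509 to 0.0623. Without sublingual C57 male 2, the library with high Egf, the log2 fold changes were -1.12 for Meg3 (adjusted p = 0.0168), -1.07 for Rian (adjusted p = 0.0321), -0.82 for Mirg (adjusted p = 0.0912), -1.30 for Rtl1 (adjusted p = 0.00505) and 5.28 for Dlk1, which was not tested.

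Rian, a maternally expressed noncoding RNA that hosts small nucleolar RNAs, moved with Meg3. In the submandibular gland its lowest, median and highest levels were 8.66, 10.2 and 19.1 CPM in CD1 and 2.87, 4.07 and 6.63 CPM in C57, with no overlap. Sublingual Rian ran at 17.8, 36.9 and 56.3 CPM in CD1 and 40.9, 75.1 and 97.1 CPM in C57, with 3 of 6 CD1 libraries below every C57 library. Rian rose in CD1 submandibular gland by 1.41 ± 0.20 (log2, edgeR adjusted p = 0.0011). In CD1 sublingual gland Rian fell by 0.95 ± 0.29 (adjusted p = 0.0495), just inside the threshold. That call was lost for Rian, at adjusted p of 0.0625 to 0.109, without C57 female 1, C57 female 3, C57 male 1, C57 male 3, CD1 female 1, CD1 female 2, CD1 male 1 or CD1 male 2.

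Mirg, the distal noncoding host of microRNAs, was much lower. Submandibular Mirg was 0.582 ± 0.167 CPM (SD, n = 6) for CD1, against 0.248 ± 0.0795 for C57, and CD1 lay above C57 without overlap, from 8 to 37 counts per library. Sublingual Mirg was 1.96 ± 0.854 CPM for CD1, against 3.33 ± 0.830 for C57. The log2 fold changes of 1.25 ± 0.36 and -0.75 ± 0.28 had the signs of Meg3 and Rian, but edgeR gave adjusted p = 0.0727 and 0.097, past the threshold in neither gland. DESeq2 called both Mirg differences, with adjusted p = 0.0232 in the submandibular and 0.0399 in the sublingual gland. In all, 1 of 20 alternatives called Mirg in the submandibular and 2 of 20 in the sublingual gland.

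Rtl1 encodes a retrotransposon-derived protein known for its role in the placenta, and it lies on the minus strand across from the noncoding RNAs. Sublingual Rtl1 was at 2.14, 2.70 and 4.09 CPM (lowest, median and highest) in CD1 and 3.21, 6.15 and 11.8 CPM in C57, with 4 of 6 CD1 libraries below every C57 library. Rtl1 fell there in CD1 by 1.18 ± 0.25 (log2, edgeR adjusted p = 0.00964). Submandibular Rtl1 was 1.63 ± 1.29 CPM for CD1, against 0.731 ± 0.527 for C57, a log2 fold change of 1.16 ± 0.47 that did not pass (adjusted p = 0.214). The strand setting of the counting is not given in the sources used here. Reads of Rtl1 and of an RNA from the opposite strand therefore cannot be told apart.

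**Figure D2:**
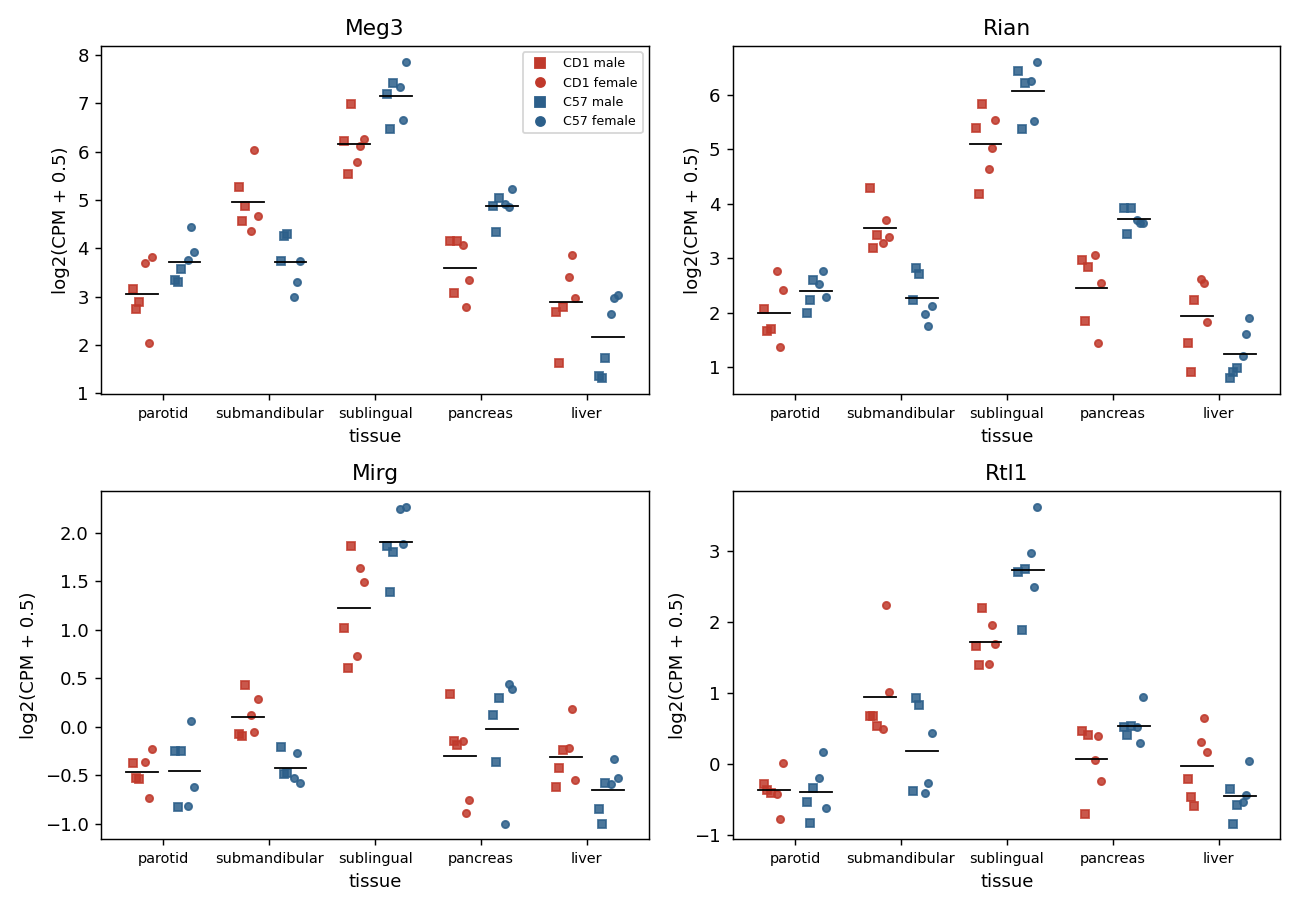
Levels of Meg3, Rian, Mirg and Rtl1 as log2(CPM + 0.5) on the vertical axes in each of the 60 libraries, by tissue on the horizontal axes; red is CD1, blue is C57, squares are males, circles are females and black lines are means of 6 libraries. The sublingual gland has the highest levels of all 4, with C57 the higher strain by mean there and CD1 the higher strain by mean in the submandibular gland.

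Whether the strain difference was equal in the 3 glands was tested on the 36 gland libraries by an F test in edgeR. It was unequal for Meg3 (adjusted p = 0.00631) and for Rian (adjusted p = 0.00318). Of all genes tested, 0.963% were called. Mirg (adjusted p = 0.118) and Rtl1 (adjusted p = 0.0961) did not pass. With a term for the animal that gave the 3 glands, the adjusted p was 0.0326 for Meg3 and 0.00991 for Rian, and without sublingual C57 male 2 it was 0.00485 and 0.002. Parotid Meg3 was 8.57 ± 3.87 CPM for CD1, against 13.2 ± 4.36 for C57, and its log2 fold change of -0.64 ± 0.28 did not pass (adjusted p = 0.212). No member passed in parotid, where 2.02% of all genes tested did.

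**Figure D3:**
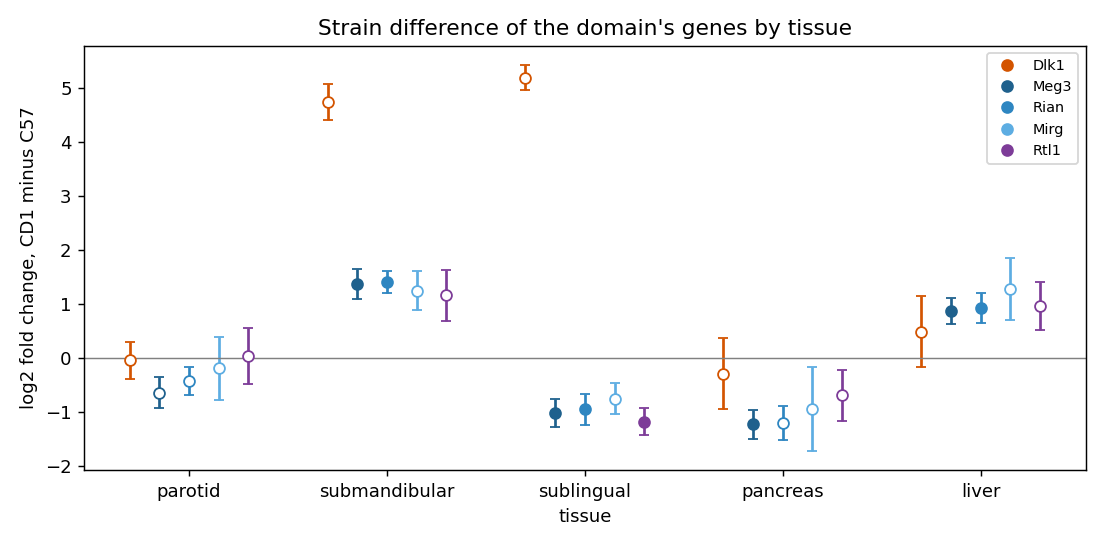
Log2 fold change between strains (CD1 minus C57, vertical axis) of Dlk1, Meg3, Rian, Mirg and Rtl1 in each tissue (horizontal axis), with bars of 1 standard error from fits to 12 libraries; filled points passed an adjusted p of 0.05, open points did not or, for Dlk1 in glands, were not tested. Dlk1 stands at 4.74 and 5.19 in the submandibular and sublingual glands, where the other 4 genes lie above 0 and below 0, respectively.

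The noncoding RNAs also differed between strains outside the glands. In pancreas, Meg3 had 6.45, 12.9 and 17.4 CPM (lowest, median and highest) in CD1 and 19.8, 29.3 and 37.0 CPM in C57, and Rian had 2.24, 6.05 and 7.88 CPM against 10.4, 12.3 and 14.7 CPM. All 6 C57 libraries lay above all 6 CD1 libraries for both genes, and the share of all genes without such overlap was not counted. By the edgeR test, 3.74% of all genes tested in pancreas were called, and 1.96% were called higher in C57. Meg3 fell in CD1 by 1.23 ± 0.27 (log2, edgeR adjusted p = 0.0343). Rian had a log2 fold change of -1.20 ± 0.31 and missed the threshold (adjusted p = 0.0544). Without the CD1 females of low Cpa1, both passed, at -0.94 for Meg3 (adjusted p = 0.0284) and -0.91 for Rian (adjusted p = 0.0396). The Meg3 call was lost, at adjusted p of 0.0666 to 0.106, without any 1 of the 6 C57 animals or the 3 CD1 males. The Rian difference passed without CD1 female 1 (adjusted p = 0.00748) or CD1 female 2 (adjusted p = 0.0331).

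In liver the direction was that of the submandibular gland. Meg3 was 7.73 ± 3.93 CPM (SD, n = 6) for CD1, against 4.61 ± 2.63 for C57, and Rian was 3.66 ± 1.71 CPM against 1.95 ± 0.782, and the strains overlapped. Both rose in CD1 by edgeR's test, Meg3 by 0.87 ± 0.24 (log2, adjusted p = 0.027) and Rian by 0.92 ± 0.28 (adjusted p = 0.0444), in a tissue where 14.1% of all genes tested were called and 7.09% were called higher in CD1. The Meg3 call was lost, at adjusted p of 0.0545 to 0.0734, without C57 female 1, C57 female 2, C57 male 1, C57 male 2, CD1 male 1 or CD1 male 3. The Rian call was lost, at adjusted p of 0.0687 to 0.111, without C57 female 1, C57 female 2, C57 male 1, C57 male 2, C57 male 3, CD1 female 1, CD1 female 2 or CD1 male 3. Mirg and Rtl1 had log2 fold changes of 1.28 ± 0.58 and 0.96 ± 0.44 that did not pass (adjusted p = 0.161 and 0.166). Of 8 stromal fibroblast markers tested in liver, 3 rose in CD1 (Pdgfrb by 0.64, Col1a2 by 0.49 and Col3a1 by 0.77), with sums of 71.1 to 172.8 CPM in CD1 and 50.4 to 86.4 CPM in C57. The myoepithelial markers Acta2 (0.38) and Krt5 (0.79) also rose, 2 of 6 tested, with sums of 17.6 to 23.0 CPM in CD1 and 13.4 to 19.9 CPM in C57. Of 8 adipocyte markers, Lpl rose and Pparg fell. The part of these markers in the liver differences of Meg3 and Rian was not tested.

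Meg3 was higher in females than in males in the liver. The 3 CD1 males had 5.89, 2.58 and 6.38 CPM and the 3 CD1 females had 10.2, 14.0 and 7.35 CPM. The C57 males had 2.06, 1.98 and 2.83 CPM and the C57 females had 5.78, 7.31 and 7.67 CPM. Females lay above males without overlap within each strain, by a ratio of means of 2.41 over both. The male minus female log2 fold change of Meg3 was -1.35 ± 0.24, with edgeR adjusted p = 0.00733, where 2.64% of all genes tested were called and 1.34% were called higher in females. It passed under all 17 alternatives run, with adjusted p from 3.55e-06 to 0.0486.

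Of the other members in liver, 4 had the same sign without passing: Rian was -0.87 ± 0.28 (adjusted p = 0.133), Mirg -1.08 ± 0.58 (adjusted p = 0.393), Rtl1 -1.32 ± 0.44 (adjusted p = 0.151) and Dio3 -1.58 ± 0.49 (adjusted p = 0.12). Dlk1 had the opposite sign, at 0.61 ± 0.66 (adjusted p = 0.692). Dio3os, the antisense RNA beside Dio3, fell in males by 2.27 ± 0.48 (adjusted p = 0.0219). Of 8 stromal fibroblast markers tested in liver, 2 were called, both lower in males: Pdgfrb (-0.71 ± 0.16, adjusted p = 0.0322) and Col1a2 (-0.57 ± 0.14, adjusted p = 0.0453). The sum of all 8 lay between 50.4 and 87.5 CPM for males and between 65.4 and 173 CPM for females, with no marker at 0 in every library of a sex. Their part in the Meg3 difference was not tested. Rian passed with DESeq2 (adjusted p = 0.0448) and without CD1 male 3 (adjusted p = 0.0357). Rtl1 and Dio3 rested on few reads, 2 to 44 and 2 to 26 counts per library. No member passed the test for sex in the other tissues, where 0.0319% (parotid), 17.2% (submandibular), 0.0691% (sublingual) and 0.0307% (pancreas) of all genes tested did. Among 18 alternatives each, 2 called Dlk1 in sublingual gland and 2 called Meg3 in submandibular gland. Their male minus female log2 fold changes ran from 0.95 to 1.21 and from 0.09 to 0.59 over all alternatives.

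**Figure D4:**
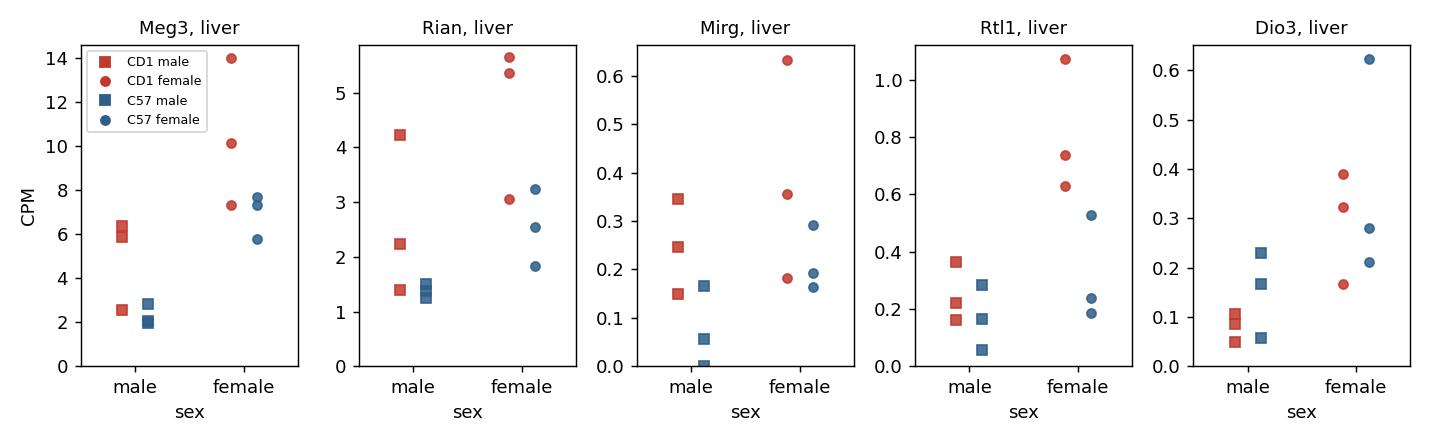
Liver CPM (vertical axes, from 0) of Meg3, Rian, Mirg, Rtl1 and Dio3 in males and females (horizontal axes), 1 point per library, with red for CD1 and blue for C57. Meg3 males lie between 1.98 and 6.38 CPM and females between 5.78 and 14.0 CPM, and within each strain the females are higher.

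The sublingual gland was the main site of the noncoding RNAs. It held 78.4% of all Meg3 counts, 82.0% of Rian, 80.0% of Mirg and 76.6% of Rtl1. These shares, and those given below for other rows, are of raw counts without the scaling used for CPM. Mean Meg3 was 112.1 ± 56.1 CPM (SD, n = 12) in sublingual gland, 23.3 ± 15.6 in submandibular gland, 21.0 ± 10.2 in pancreas, 10.9 ± 4.62 in parotid and 6.17 ± 3.58 in liver. In a fit to all 60 libraries, sublingual gland exceeded each other tissue by at least 2-fold with an adjusted p under 0.05 for Meg3, Rian, Mirg and Rtl1. The log2 differences from sublingual gland were -3.33, -3.58, -3.37 and -3.96 in parotid and -2.34, -2.82, -2.73 and -2.07 in submandibular gland. Sublingual gland exceeded pancreas by 2.47, 2.61, 2.73 and 2.52 and liver by 4.29, 4.30, 3.66 and 3.72. Among all genes tested, 9.94%, 7.76%, 16.2% and 29% were higher in sublingual gland by this rule than in parotid, submandibular gland, pancreas and liver. Next in order for Meg3, submandibular gland and pancreas did not differ beyond their spread (log2 difference 0.12 ± 0.20, adjusted p = 0.667).

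Dio3 encodes the deiodinase that inactivates thyroid hormone, at the far end of the domain. It was scarce everywhere, and 48.1% of its counts came from liver and 37.2% from parotid. Liver libraries had 2 to 26 counts, 0.224 ± 0.165 CPM (SD, n = 12), and parotid libraries had 0 to 26 counts, 0.138 ± 0.124 CPM. No submandibular or sublingual library had more than 4 counts, so no fold is given for those glands. Dio3 did not pass the strain test in liver (log2 fold change -0.60 ± 0.48, adjusted p = 0.443) or parotid (0.67 ± 0.92, adjusted p = 0.696). In submandibular gland, sublingual gland and pancreas it did not reach the filter on low counts. Dio3os had 84.2% of its counts in liver, where CD1 had 3.27 ± 4.54 CPM and C57 2.32 ± 1.73 CPM.

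Relative to their listed lengths, the ratios of the noncoding RNAs to Meg3 varied less across tissues than that of Dlk1. The ratio of Rian to Meg3 in CPM per kilobase had medians of 1.17 to 1.73 over the 10 groups of tissue and strain, and that of Mirg to Meg3 had medians of 0.177 in C57 parotid to 0.400 in CD1 liver. The ratio of Dlk1 to Meg3 had medians of 1.40 in CD1 and 0.158 in C57 submandibular gland, and of 0.479 and 0.00805 in sublingual gland. Across the 60 libraries, which share tissues and animals, Pearson's r of log2 levels was 0.979 between Meg3 and Rian, 0.923 between Meg3 and Rtl1 and 0.880 between Meg3 and Mirg. It was 0.345 between Dlk1 and Meg3. After the means of the 20 groups were removed, these values were 0.855, 0.725, 0.495 and 0.238. These correlations are descriptions over libraries that share tissues, animals and scaling.

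**Figure D5:**
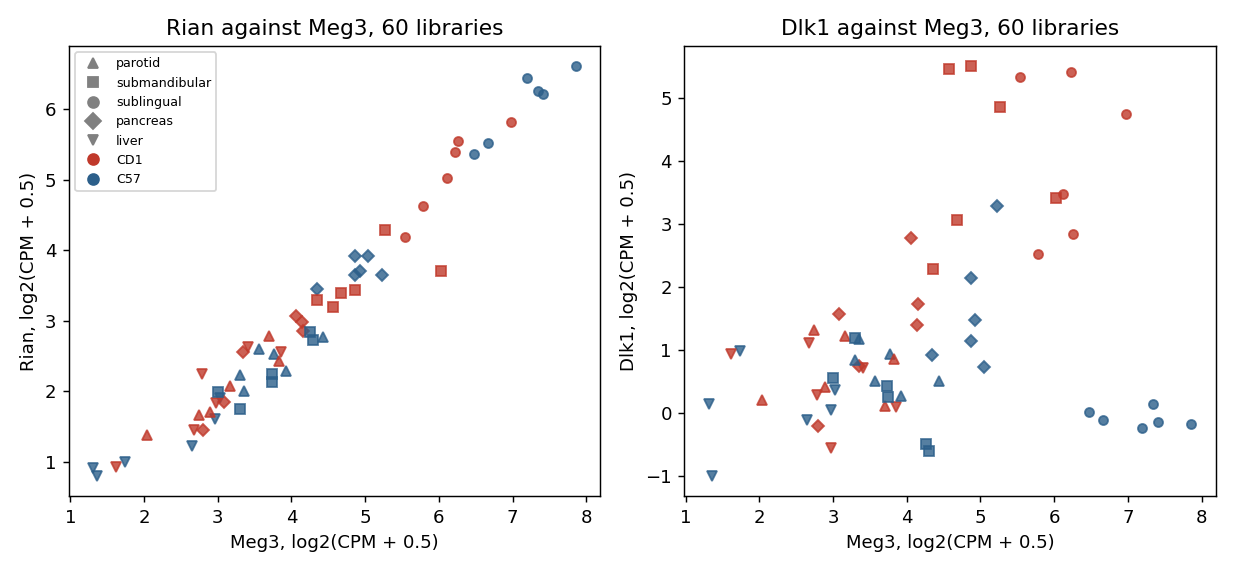
Rian (left) and Dlk1 (right) against Meg3, all as log2(CPM + 0.5), in each of the 60 libraries; marker shape gives the tissue, red is CD1 and blue is C57. Rian follows Meg3 along 1 line (r = 0.979), and Dlk1 (r = 0.345) has separate CD1 points at high levels.

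The genes most like Meg3 over the 60 libraries, by Pearson's r of log2 levels, were Rian (0.979), Rtl1 (0.923), AF357359 (0.905), Sobp (0.901) and Chd6 (0.894). AF357359 lies inside the domain. It had 83.9% of its counts in sublingual gland. Submandibular libraries had 12 to 29 counts in CD1 and 2 to 11 in C57, so AF357359 reached the filter through CD1. Its log2 fold change there was 2.04 ± 0.39 (edgeR adjusted p = 0.00768), at 0.490 ± 0.0902 CPM for CD1, against 0.125 ± 0.0639 for C57. It is therefore not separate support. Most like Dlk1 were Pak6 (0.765), Gm54110 (0.755), H2bc18 (0.692), Gm35379 (0.679) and Gm52042 (0.650). Gm54110, Gm35379 and Gm52042 were low, with means of at most 0.319, 0.648 and 0.529 CPM in any tissue and strain. Pak6, a protein kinase, had means of 24.0 and 1.31 CPM in CD1 and C57 submandibular gland and of 6.51 and 0.996 CPM in sublingual gland. It was picked by these same levels, so they are not separate support. After group means were removed, the 5 most like Dlk1 were others: Erich5, Matn4, Wdr13, Chrdl2 and Galnt6os.

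The domain held 93 other rows of the table, of which 55 had at least 1 count. In the submandibular gland 2 of them reached the test, AF357359 and Gm34081, and both passed with CD1 the higher strain. Their C57 libraries had 2 to 11 and 0 counts, respectively, so both reached the filter through CD1. Their shared direction is therefore not separate support. Gm34081, at chr12:109458562-109459555 on the minus strand, lies between Dlk1 and Meg3 in GRCm39. It had 0 to 21 counts per CD1 library and 0 in every C57 library (edgeR adjusted p = 0.0412), so no fold is given, and its CD1 mean was 0.242 ± 0.312 CPM (SD, n = 6). Sublingual Gm34081 was 0.234 ± 0.243 CPM for CD1, against 0.117 ± 0.151 for C57, with a log2 fold change of 1.04 ± 0.67 that did not pass (adjusted p = 0.321). AF357359 had the sign of Meg3 in sublingual gland, at -0.69 ± 0.27 (adjusted p = 0.103). The 61 rows named for microRNA genes had 435 counts in all 60 libraries, and 79.3% of them were sublingual. The 16 rows that lie inside the listed exon of Rtl1, 15 of them microRNA genes, had 0 counts. These rows overlap Rtl1, and the strand setting of the counting is not given. Their 0 counts therefore do not show that nothing is transcribed there. Outside the domain, 46 rows lay within 1 Mb. None of the 31 tested passed in the submandibular gland, and 3 of 32 passed in the sublingual gland: Cinp (0.31 ± 0.07, adjusted p = 0.00984), Slc25a29 (0.35 ± 0.10, adjusted p = 0.0338) and Zfp839 (-0.54 ± 0.17, adjusted p = 0.047), all log2 by edgeR. These are 0% and 9.38% of the flanking genes, where 4.75% and 14.8% of all genes tested were called. The median log2 fold change of the flanking genes was -0.01 in the submandibular and -0.03 in the sublingual gland, against 0.01 and -0.01 over all genes tested.

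Other imprinted genes and the pathways of the coding members were counted from lists. Of 53 imprinted genes elsewhere, 51 were in the table. In the submandibular gland 3 of 40 tested passed, 1 higher and 2 lower in CD1: Ampd3 (1.12 ± 0.16), an AMP deaminase, Sgce (-1.03 ± 0.17) and Peg10 (-2.24 ± 0.40). In the sublingual gland 7 of 41 passed, 3 higher and 4 lower, among them Ampd3 (1.98 ± 0.21) and Sgce (-0.89 ± 0.12). The shares called were 7.5% and 17.1%, against 4.75% and 14.8% of all genes tested, and the medians were -0.04 and 0.07. Of 27 Notch pathway genes tested, 1 passed in the submandibular (3.7%) and 3 in the sublingual gland (11.1%), both shares below those of all genes tested. Dlk2, the paralogue of Dlk1, rose in CD1 in both (0.78 ± 0.15, adjusted p = 0.0068, and 1.10 ± 0.15, adjusted p = 0.000666), and Rbpj, the DNA-binding effector of Notch, fell in sublingual gland by 0.87 ± 0.19 (adjusted p = 0.0103). Of 15 genes of thyroid hormone handling tested, 1 (6.67%) and 2 (13.3%) passed. Thra was lower in CD1 in both glands (-0.42 ± 0.11, adjusted p = 0.0479, and -0.45 ± 0.10, adjusted p = 0.00887), and Dio1 fell in sublingual gland by 1.79 ± 0.23 (adjusted p = 0.000448).

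Markers of other cell types were read beside these results. Of 7 peripheral neuron markers tested in the submandibular gland, 4 fell in CD1 (Tubb3, Stmn2, Uchl1 and Prph), in a gland where 4.75% of all genes tested were called. The summed level of the 10 markers listed was 0.641 to 1.85 CPM in CD1 and 1.59 to 27.3 CPM in C57, and Chat and Th were at 0 in every CD1 library. In the same gland 1 of 8 stromal fibroblast markers rose in CD1 by edgeR (Col3a1, 0.76 ± 0.18, adjusted p = 0.0281). So did 1 of 7 duct markers (Cftr, 1.03 ± 0.19, adjusted p = 0.00568). Others went the other way without passing, among them Pi16 (-0.96 ± 0.33, adjusted p = 0.136) and Ascl3 (-0.71 ± 0.22, adjusted p = 0.102). The median log2 fold change was 0.17 for the stromal and -0.04 for the duct markers. The stromal sum was 281.6 to 639.4 CPM in CD1 and 189.7 to 593.7 CPM in C57, and the duct sum was 260.8 to 497.4 CPM and 342.5 to 463.9 CPM. In the sublingual gland the neuron sum was 0.661 to 3.20 CPM in CD1 and 1.08 to 33.1 CPM in C57, and Prph fell. Of 6 myoepithelial markers tested in the sublingual gland, 3 rose in CD1 (Acta2, Krt5 and Trp63), with sums of 878 to 1334 CPM in CD1 and 657 to 1024 CPM in C57, and 1 of 7 duct markers rose (Krt19, 1.14 ± 0.27), where 14.8% of all genes tested were called. In pancreas, with the CD1 females of low Cpa1 kept, 1 of 6 myoepithelial markers rose in CD1 (Acta2, 1.38 ± 0.34). There 1 of 7 duct markers fell (Kit, -1.33 ± 0.16), and 3.74% of all genes tested were called. The median log2 fold change in pancreas was 0.87 for the myoepithelial and 0.13 for the duct markers, against 0.08 over all genes tested. Adipocyte markers, which matter because Dlk1 marks precursors of fat cells, had 0 of 8 called in either gland, with sums of 49.9 to 238.6 CPM in CD1 and 53.8 to 80.1 CPM in C57 submandibular gland. Their median log2 fold change was 0.85 in the submandibular and 0.08 in the sublingual gland, against 0.01 and -0.01 over all genes tested. Islet endocrine markers summed to at most 4.25 CPM in the submandibular and sublingual glands. The part of these markers in the strain differences of the domain was not tested.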

How the data were processed

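Poly(A)-selected RNA was measured in 60 libraries, 3 for each of the 20 groups of tissue, strain and sex. The deposited table holds raw counts per gene; per the submitters' processing notes, HISAT2, Trim Galore, featureCounts and the build GRCm39 (mm39) were used, and versions and the strand setting are not given in the sources used here. Even values from 1 to 20 outnumbered odd ones by 1.68, so a count of 2 can stand for 1 fragment. Library totals ran from 29.9 M to 66.6 M (mega). Reads carry no molecular identifiers, so the spread of low counts can exceed counting error.

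Tests used R 4.3.3 with edgeR 4.0.16 and limma 3.58.1, by quasi-likelihood on the counts, with scaling by the trimmed mean of M-values, the default filter on low counts and Benjamini-Hochberg adjustment over all genes tested, and a call at adjusted p under 0.05. Each tissue was fitted as 4 group means to 12 libraries, the glands as 12 group means to 36 libraries and tissues as 20 group means to 60 libraries, where a call also needed 2-fold. Strain is CD1 minus C57 over both sexes and sex is male minus female. Correlations and figures use log2(CPM + 0.5). Scripts were tested on simulated data.

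Alternatives were size factors of DESeq2 1.42.0, its own test, no filter, a replicate block, leaving out animals or libraries, 1 sex, and 1 fit to 60 libraries. The same replicate number in another strain or sex is another animal, and the labels give it no shared batch, so numbers were not taken to pair libraries. The 5 tissues of 1 animal are paired by the labels. Whether animals were kept or processed separately is not given, so p-values measure the spread between these samples.

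The members and lists were chosen with earlier results of these data known. Genes named outside the domain were the 5 most correlated with Dlk1 or Meg3 and, per list and gland, those of smallest p (up to 3) whose highest group mean reached 1 CPM; not every such gene is reported. Names of neuron and myoepithelial markers are those called.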

Additional observations from a re-analysis of the deposited data

Results flagged for a closer look

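In groups of 6 libraries of 1 tissue and strain, 6 of 58 tested held a library far from the other 5, where chance gives about 5%. Dlk1 reached 9.24 CPM in pancreas C57 female 3, far above the other 5 libraries, and Rtl1 was also highest in that library, at 1.42 CPM. Rian was 19.1 CPM in submandibular CD1 male 1. Submandibular CD1 female 2 stood above its group in Rtl1, at 4.24 CPM, and had the only Dio3 counts of its group, 4 counts or 0.0770 CPM. Sublingual CD1 male 3 had 0.0634 CPM of Dio3, also 4 counts.

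The strain difference was unequal among the 3 glands for Meg3 (edgeR adjusted p = 0.00631, log2 fold changes of -0.64, 1.37 and -1.01 in parotid, submandibular and sublingual gland) and for Rian (adjusted p = 0.00318, log2 fold changes of -0.43, 1.41 and -0.95). In the submandibular gland 6 of 6 CD1 libraries lay above every C57 library for both. The share of all genes without such overlap was not counted, so this is a description only.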

How the results depend on the processing

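No strain difference of Meg3 or Rian that was called changed sign under any alternative run. With 1 sex alone (3 against 3), Meg3 missed the threshold at 0.84 in males and 1.90 in females in submandibular gland, -0.71 in sublingual males, -0.93 and -1.51 in pancreas, and 1.11 and 0.65 in liver. Rian missed it at 1.18 in submandibular males, -0.80 and -1.10 in sublingual gland and 0.93 in each sex of liver, and Rtl1 at -0.80 in sublingual males. In 1 fit to 60 libraries, Rtl1 in sublingual gland (-1.18), Meg3 in liver (0.86) and Rian in liver (0.91) missed it. Rian in pancreas passed with no filter (-1.19), without the libraries that stand apart (-0.91), in males (-1.21), with DESeq2 (-1.21) and in 1 fit (-1.24). Mirg passed with DESeq2 in submandibular (1.26) and sublingual gland (-0.75), the latter 1 of 2 alternatives that passed there. By gland, Mirg (adjusted p = 0.0225) and Rtl1 (0.0194) passed with DESeq2 too. The cause of these changes was not tested, beyond the fewer samples of 1 sex.

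Without 1 animal, the log2 range was -1.24 to -0.85 for Meg3, -1.14 to -0.77 for Rian and -1.04 to -0.60 for Mirg in sublingual gland, -1.43 to -1.09 for Meg3 and -1.41 to -1.02 for Rian in pancreas, and 0.73 to 1.02 for Meg3 and 0.65 to 1.07 for Rian in liver.

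Same-numbered CD1 and C57 libraries had deviations from their group means correlated above 0.1 in 5 of 6 parotid pairs (0.0784 to 0.451), 2 of 6 in sublingual gland and liver and 0 of 6 in submandibular gland and pancreas. In parotid 12 of 12 libraries were closest to their own number in the other strain, a hint from the data and not the design that numbers pair parotid libraries, against 0, 6, 1 and 8 of 12 in submandibular gland, sublingual gland, pancreas and liver. With a replicate block on the shared number, Meg3 in pancreas (-1.30, adjusted p = 0.055) and Rian in liver (0.86, adjusted p = 0.0905) lost their calls, and no other strain call of a neighbour changed. Over all genes, the replicate block moved the count called for strain from 380 to 663 in parotid, 840 to 462 in submandibular gland and 609 to 87 in pancreas, for sex from 13 to 7 in sublingual gland, and for the interaction from 4 to 2 in submandibular and 2 to 1 in sublingual gland. With the animal as the block, chosen after seeing the data, the gland test called 91 in place of 201.

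Over all genes, the strain counts with DESeq2 were 2240 in parotid, 1490 in submandibular gland and 2236 in pancreas, and 907 by gland. In 1 fit they were 2751 in parotid, 859 in sublingual gland and 4815 in pancreas. In males and females alone they were 33 and 20 in parotid, 490 and 109 in submandibular gland, 332 and 1570 in sublingual gland, 980 and 0 in pancreas, and 1133 and 497 in liver. No filter gave 940 in pancreas and 314 by gland, the libraries that stand apart left out gave 1209 in pancreas and 131 by gland, and submandibular gland without CD1 female 2, chosen after seeing the data, gave 1355. The female pancreas count of 0 is from edgeR, with 2380 genes at an unadjusted p under 0.05.

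Over all genes, the sex counts with DESeq2 were 39 in parotid (6 in the fit reported), 49 in sublingual gland, 125 in pancreas (5) and 995 in liver (441). In 1 fit they were 22, 934 and 207 in parotid, pancreas and liver and 1953 in submandibular gland (3048). No filter gave 20 in sublingual gland and 687 in liver, and the libraries that stand apart left out gave 8 in sublingual gland and 13 in pancreas. The interaction counts with DESeq2 were 220, 122, 20, 133 and 139 in parotid, submandibular gland, sublingual gland, pancreas and liver, where the fit reported gave 0, 4, 2, 0 and 8 (at an unadjusted p under 0.05, 1522 genes in parotid and 1936 in pancreas). With no filter they were 2, 112, 19, 1 and 76, and 6 in pancreas without the libraries that stand apart.

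Without 1 animal, strain counts over all genes ranged from 154 to 2132 in parotid, 501 to 1355 in submandibular gland, 1851 to 2713 in sublingual gland, 114 to 4597 in pancreas and 46 to 1017 by gland. Sex counts ranged from 7 to 12 in sublingual gland, 4 to 2629 in pancreas and 292 to 588 in liver. Interaction counts ranged from 0 to 2 in parotid, 2 to 6 in submandibular gland, 0 to 4 in sublingual gland, 0 to 2584 in pancreas and 1 to 19 in liver. Mirg, Rtl1 and Dio3 rest on few counts in several tissues.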
